A study of Saccharomyces cerevisiae with 4 samples.

Results

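The genes described here encode the small subunit processome, the large nucleolar particle in which the small (40S) ribosomal subunit of yeast begins to form, and the factors that finish that subunit afterwards. There were 52 of them, chosen by name among 5656 genes that have an Affymetrix probe set naming 1 gene. Of the 52, 51 were matched by symbol and DBP4 by its gene number, since the gene table calls it HCA4. All 52 were tested, because each lay above the floor of 18.5 intensity units on at least 1 array. Their transcripts were measured in Saccharomyces cerevisiae strain ATCC 4126 grown on YP rich medium with galactose or with glucose, with total RNA taken at an optical density of 1.0. There were 2 arrays for galactose, lettered B and C, and 2 for glucose, lettered A and B, with no mutation or further agent given for either medium. Nothing says that the letters are separate cultures, so a p-value here measures no more than the spread between these 4 samples, and that spread may be technical.

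The precursor of 18S ribosomal RNA is caught while it is being transcribed by several protein modules and by the U3 small nucleolar ribonucleoprotein (U3 snoRNP), whose RNA pairs with the precursor. RNA helicases and a GTPase then rearrange the particle, the precursor is cut, and a pre-40S particle leaves for the cytoplasm, where a nuclease makes the last cut. In yeast these genes are known as part of the ribosome biogenesis regulon, a set of genes that rises and falls with growth rate and nutrient supply.

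The media of the arrays were checked with the galactose genes GAL1, GAL2, GAL7 and GAL10. On the galactose arrays these 4 genes stood between 4717 and 16114 intensity units, and on the glucose arrays between 8.64 and 45.7. The median intensity over all probe sets lay between 108 and 117 on the 4 arrays, and with so few arrays every value is imprecise. Where intensities are given in pairs, galactose B comes before galactose C and glucose A before glucose B. Differences below are on the log2 scale after values under the floor were set to it. The arrays measure a transcript relative to the others in the RNA of the whole culture, so that fewer cells with a transcript and less of it per cell cannot be told apart.

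The genes shared the arrays at both ends of their range. Galactose C was the lowest array for 51 of 52, where over all 5403 genes tested it was the lowest for 33.7%. Glucose B was the highest array for 50 of 52, against 31.0% of all genes. For 32 genes the order from low to high was galactose C, galactose B, glucose A, glucose B, and for 18 genes galactose B and glucose A changed places. The exceptions were MPP10, in which glucose A was the highest array, and RIO1, in which both galactose arrays stood above both glucose arrays.

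**Figure D1:**
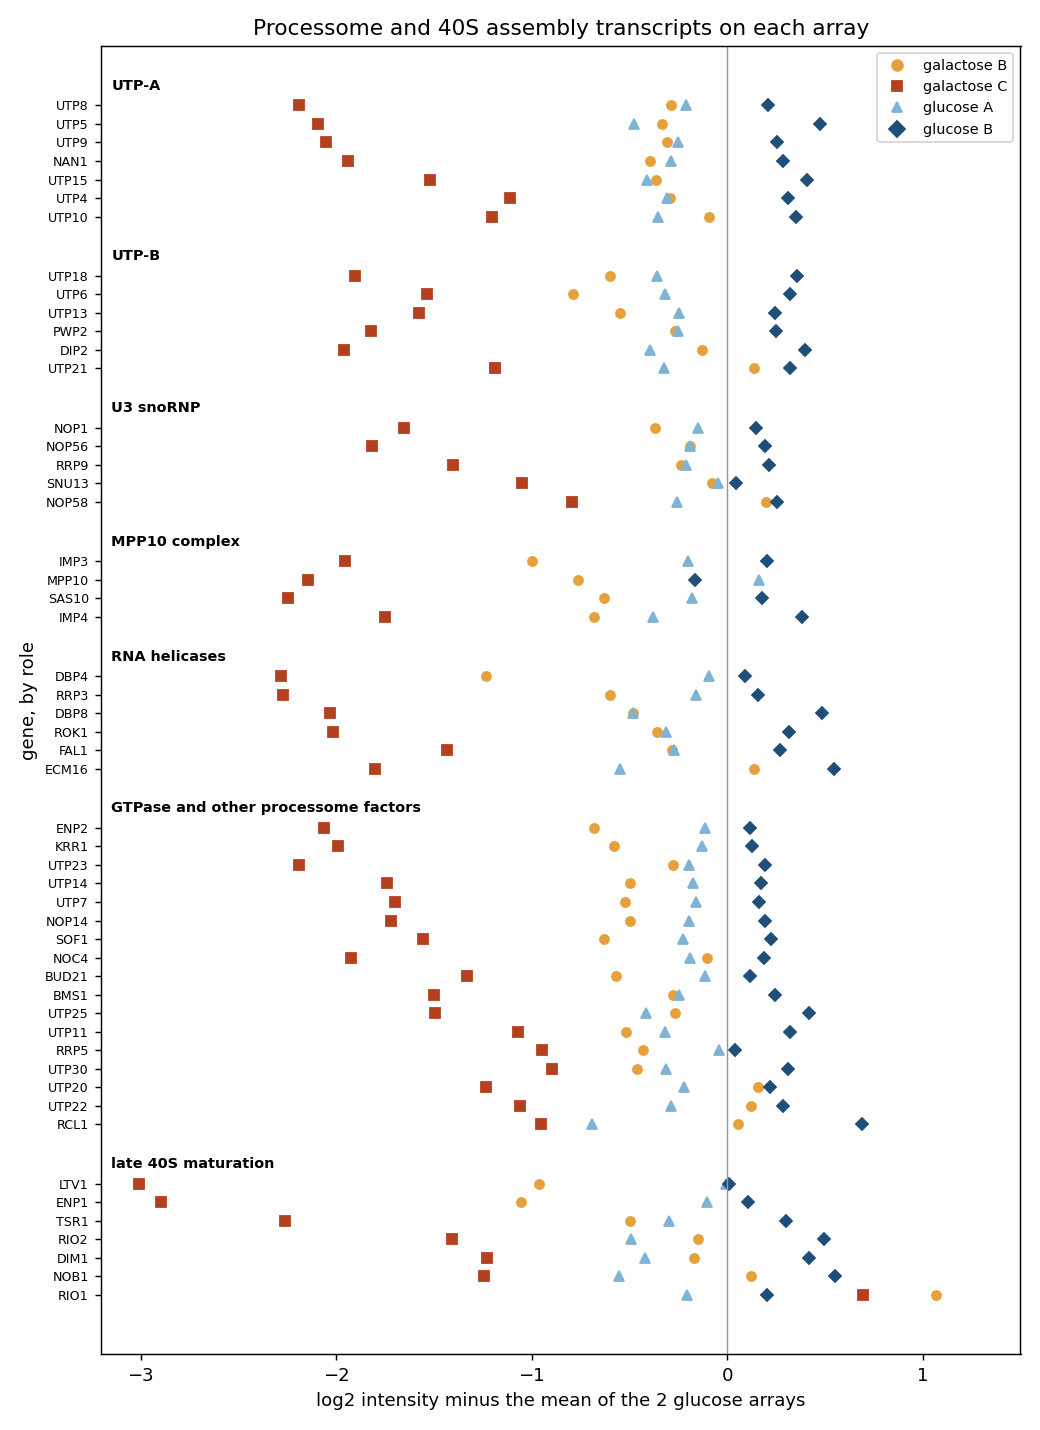
Each row is 1 gene, grouped by role, and each point is 1 array. The horizontal axis is the log2 intensity minus the mean of the 2 glucose arrays of that gene. Galactose C is the lowest point for 51 of 52 genes, while galactose B lies near glucose A for many of them, and RIO1 alone has both galactose arrays to the right.

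Galactose against glucose, the comparison the labels set up, gave a median difference of -1.04 over the 52 genes, or 2.06-fold lower in galactose. The median over all genes tested was -0.03. Of the 52, 51 had a lower mean in galactose, against 2875 of all 5403 genes tested. For 33 each galactose array lay below each glucose array, which is called apart below, against 23.4% of all genes. In 1 of 52 the galactose arrays stood above the glucose arrays, against 15.0% of all genes. None passed the test over the whole table (limma with Benjamini-Hochberg adjustment, lowest adjusted p = 0.333), where 0.0411% of probe sets were called lower and 0.794% higher. At an unadjusted p under 0.05 there were 9 lower genes and 1 higher, against 4.33% and 4.29% of probe sets. An exact two-sided permutation test of 2 arrays against 2 cannot give a p below 0.333.

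The size of the difference rested on galactose C. Against the mean of the glucose arrays the median of the 52 genes was -0.36 for galactose B but -1.71 for galactose C, so that without galactose C the median difference went from -1.04 to -0.36, and without galactose B it was -1.71. Galactose B lay below both glucose arrays for 33 genes, against 40.8% of all genes, and between glucose A and glucose B for 18 (34.6%), against 17.6% of all genes. Set against glucose A alone, the median on galactose B was -0.07. In some genes with the media apart that gap was narrow, such as -0.01 in FAL1, -0.02 in PWP2 and -0.02 in RRP9. In 39 of 52 genes the galactose arrays were further apart from each other than the means of the media were, and the same held for 65.6% of all genes tested.

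Inside galactose, where there is 1 array on each side and no test, galactose C was lower than galactose B for all 52 genes, against 50.4% of all genes. The median difference was -1.25, or 2.38-fold, and the range ran from -2.05 in LTV1 to -0.37 in RIO1. For 41 of 52 galactose C was at least 2-fold lower, against 6.92% of all genes. Inside glucose, glucose B was higher than glucose A for 51 of 52 genes, against 55.8%, with a median difference of 0.50 (1.41-fold). For 3 of 52 glucose B was at least 2-fold higher, against 1.13%. The galactose arrays were further apart than the glucose arrays for 48 of 52 genes (92.3%), and for 66.9% of all genes tested.

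The UTP-A module binds the leading part of the nascent precursor first. UTP8 stood at 213 and 56.9 in galactose and at 225 and 300.2 in glucose, a difference of -1.24 ± 0.68 (SE, adjusted p = 0.671). UTP5 stood at 246 and 72.6 in galactose and at 223 and 431 in glucose, with a difference of -1.21 ± 0.69 (adjusted p = 0.684). UTP8 had its media apart by a narrow gap between galactose B and glucose A, while in UTP5 galactose B lay above glucose A. The smallest differences of the module were those of UTP10, a long repeat protein, and UTP4, a WD-repeat protein. UTP10 stood at 712 and 329 in galactose and at 594 and 968 in glucose. UTP4 stood at 80.5 and 45.7 in galactose and at 79.5 and 122 in glucose. In both genes galactose B lay between the glucose arrays. Over the 7 genes of the module, which also include UTP9, UTP15 and NAN1, the median lay at -0.31 for galactose B and at -1.94 for galactose C. Of the 7, 3 had their media apart. The share of all genes apart in this direction, 23.4%, stands beside this count and those of the groups below, which are small.

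UTP-B is a module of WD-repeat and helical-repeat proteins that joins the precursor next to the U3 snoRNP. UTP18 stood at 155 and 63.0 in galactose and at 184 and 302 in glucose (difference -1.25 ± 0.54, adjusted p = 0.592). UTP13 stood at 551 and 270.2 in galactose and at 680 and 957 in glucose (difference -1.06 ± 0.43, adjusted p = 0.591). Both had their media apart, as did PWP2 and UTP6, so that 4 of 6 did. UTP6 was dim, at 31.0 and 15.4 in galactose and at 42.9 and 66.9 in glucose. Its value on galactose C lay under the floor, so its difference of -1.16 ± 0.36 (adjusted p = 0.474) was computed from the floor there. DIP2 overlapped, at 373 and 105 in galactose against 310.4 and 537 in glucose. UTP21 had the smallest difference of the 6, -0.52 ± 0.53 (adjusted p = 0.803), with galactose arrays at 375 and 149.8 and glucose arrays at 273 and 426. Its galactose B value was nearer to glucose B than to glucose A, and without galactose C the difference was 0.14.

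The genes of the U3 snoRNP proteins had a median difference of -0.82 over 5 genes, and 3 of them had their media apart. NOP1, the methyltransferase known as fibrillarin in animals, stood at 1994 and 819 in galactose and at 2322 and 2856 in glucose (difference -1.01 ± 0.47, adjusted p = 0.621). NOP56, a scaffold of the box C/D particles, stood at 1809 and 585 in galactose and at 1805 and 2357 in glucose. The media were apart in NOP1 and met in NOP56, in which galactose B lay just above glucose A. SNU13, an RNA-binding protein that is also part of the splicing machinery, stood at 2334 and 1192 in galactose and at 2390 and 2547 in glucose. The difference in SNU13 was -0.56 ± 0.37 (adjusted p = 0.734), with glucose arrays 0.09 apart.

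NOP58, the partner of NOP56, had the smallest difference among the genes that were lower in galactose, each read from its brightest probe set. That difference was -0.30 ± 0.41 (adjusted p = 0.864, 95% interval -1.37 to 0.78). The brightest probe set of NOP58 stood at 7499 and 3764 in galactose and at 5462 and 7799 in glucose. On this probe set only galactose C set the galactose mean below the glucose mean, and without it the difference was 0.20. NOP58 was read by 4 probe sets, and on each of them galactose C was lower than galactose B, by 1.41-fold to 1.99-fold, and the media overlapped. The dimmer probe sets had differences of -0.68, -0.39 and -0.50, and on each of them galactose B also lay below the glucose mean.

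The Mpp10 complex helps U3 pair with the precursor, and all 4 of its listed genes had their media apart. IMP3 stood at 153 and 79.1 in galactose and at 267 and 353 in glucose, a difference of -1.48 ± 0.41 (adjusted p = 0.419, 95% interval -2.56 to -0.39). MPP10 stood at 107 and 40.9 in galactose and at 203 and 162 in glucose, a difference of -1.45 ± 0.52 (adjusted p = 0.555). IMP3 was low on both galactose arrays, and in MPP10 glucose A was higher than glucose B. SAS10, a further processome protein grouped with them, stood at 812 and 265 in galactose and at 1111 and 1422 in glucose. IMP4 stood at 183 and 87.3 in galactose and at 226 and 383 in glucose. The medians of the 4 genes were -0.72 for galactose B and -2.05 for galactose C, the lowest of the 7 role groups on both arrays.

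Among the RNA helicases, DBP4 had the lowest adjusted p of the 52 genes. It stood at 153 and 74.0 in galactose and at 338 and 383 in glucose, 3.38-fold lower (difference -1.76 ± 0.42, adjusted p = 0.333, 95% interval -2.86 to -0.66). Each galactose array was well below each glucose array, and the glucose arrays were 0.18 apart. RRP3 stood at 376 and 118 in galactose and at 511 and 637 in glucose (difference -1.44 ± 0.60, adjusted p = 0.591). ECM16, the Dhr1 helicase that unwinds U3 from the precursor, went the other way between galactose B and glucose A, at 532 and 139 in galactose and 331 and 707 in glucose. Its galactose arrays differed by 3.84-fold and its glucose arrays by 2.14-fold, while the media differed by 1.78-fold (difference -0.83 ± 0.76, adjusted p = 0.783). Without galactose C the difference was 0.14. ROK1 stood at 104 and 33.0 in galactose and at 107 and 166 in glucose. FAL1, a dim transcript, stood at 41.1 and 15.3 in galactose and at 41.5 and 60.3 in glucose, under the floor on galactose C. The media were apart in 4 of the 6 helicase genes, all but ECM16 and DBP8. From glucose A, galactose B stood at only -0.04 in ROK1, -0.01 in FAL1 and 0.004 in DBP8, so that the count turned on small gaps.

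Of the 17 genes for the GTPase Bms1 and other processome proteins, 12 had their media apart, and the group's median was -0.46 for galactose B and -1.50 for galactose C. ENP2 stood at 235 and 90.2 in galactose and at 347 and 407 in glucose (difference -1.37 ± 0.51, adjusted p = 0.573). KRR1, an RNA-binding protein, stood at 257 and 96.9 in galactose and at 352 and 421 in glucose (difference -1.29 ± 0.52, adjusted p = 0.591). Both had the commonest order of the arrays. UTP23 showed one of the largest gaps between the galactose arrays, at 801 and 213, with glucose at 848 and 1113. RCL1, the partner of Bms1, showed the largest gap between the glucose arrays, at 146 and 381, with galactose at 245 and 122. The difference of the media for RCL1 was -0.45 ± 0.61 (adjusted p = 0.862), and it was 0.24 without glucose B and 0.06 without galactose C.

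UTP22, part of the UTP-C module, stood at 548 and 241 in galactose and at 413 and 614 in glucose (difference -0.47 ± 0.48, adjusted p = 0.807, and 0.12 without galactose C). UTP22 and UTP20, which scaffolds the particle, were each read by several probe sets. UTP20's brightest probe set stood at 1001 and 381 in galactose and at 772 and 1045 in glucose, a difference of -0.54 ± 0.52 (adjusted p = 0.798) that was 0.16 without galactose C. Of its 10 probe sets 6 were above the floor on some array, and on 5 of them galactose C was below galactose B, the dimmest being at the floor on both. Of the 6 probe sets of UTP22, 5 were tested and galactose C was the lower array on all 5. The media were apart on 1 of 6 probe sets for UTP20 and on 3 of 5 for UTP22, so whether the media overlapped depended on the probe set. The sign without galactose C did too. On the dimmer tested probe sets of both genes, some of them near the floor, galactose B lay below the glucose mean.

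Factors of the late, pre-40S particle were the most uneven group, with differences from -1.98 to 0.88. LTV1, which sits on the particle with ENP1 until it is released, stood at 102 and 24.7 in galactose and at 197 and 199 in glucose. That is a difference of -1.98 ± 0.70 (adjusted p = 0.555, 95% interval -3.83 to -0.14), with glucose arrays only 0.02 apart and galactose arrays 2.05 apart. ENP1 stood at 492 and 137 in galactose and at 949.9 and 1098 in glucose, a difference of -1.98 ± 0.64 (adjusted p = 0.520, 95% interval -3.65 to -0.30). In both genes galactose B was also below the glucose arrays, by 0.96 in LTV1 and 1.05 in ENP1 from the glucose mean. TSR1, a GTPase-like protein, was the third with its media apart (difference -1.38 ± 0.65, adjusted p = 0.621).

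The nuclease gene NOB1, which makes the last cut of 18S ribosomal RNA, overlapped between the media. It stood at 185 and 71.9 in galactose and at 116 and 249 in glucose (difference -0.56 ± 0.62, adjusted p = 0.825). Galactose B lay between the glucose arrays, which differed by 2.15-fold, and without galactose C the difference was 0.12. The RNA methyltransferase gene DIM1 and the kinase gene RIO2 had the same order of arrays. RIO2 stood at 178 and 74.5 in galactose and at 140.3 and 278 in glucose.

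RIO1, the gene of a related kinase, was the exception of the whole set. It stood at 601 and 464 in galactose and at 249 and 331 in glucose, 1.84-fold higher in galactose (difference 0.88 ± 0.29, adjusted p = 0.525, 95% interval 0.13 to 1.63). Its galactose arrays lay 1.07 and 0.69 above the glucose mean, and galactose C was below galactose B as in the other 51 genes. RIO1 (YOR119C) and GCY1 (YOR120W), an aldo-keto reductase gene known as a target of the activator Gal4, are neighbours in the RefSeq gene order, and the letters of their names place them on opposite strands. GCY1, chosen after its values were seen, stood at 3784 and 6343 in galactose and at 602 and 591 in glucose, 8.21-fold higher (adjusted p = 0.0451). GCY1 passed in 4 of 9 other fits to all 4 arrays (limma adjusted p from 0.0267 to 0.106). These changed the scaling, floor, filter or variance model, or used probe set means. With 1 array left out its difference lay between 2.67 and 3.41, against 3.04 with all arrays. Among 98 tested neighbours of the 52 genes GCY1 had the highest difference, and their median was -0.04. Whether the 2 genes are linked was not tested.

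**Figure D2:**
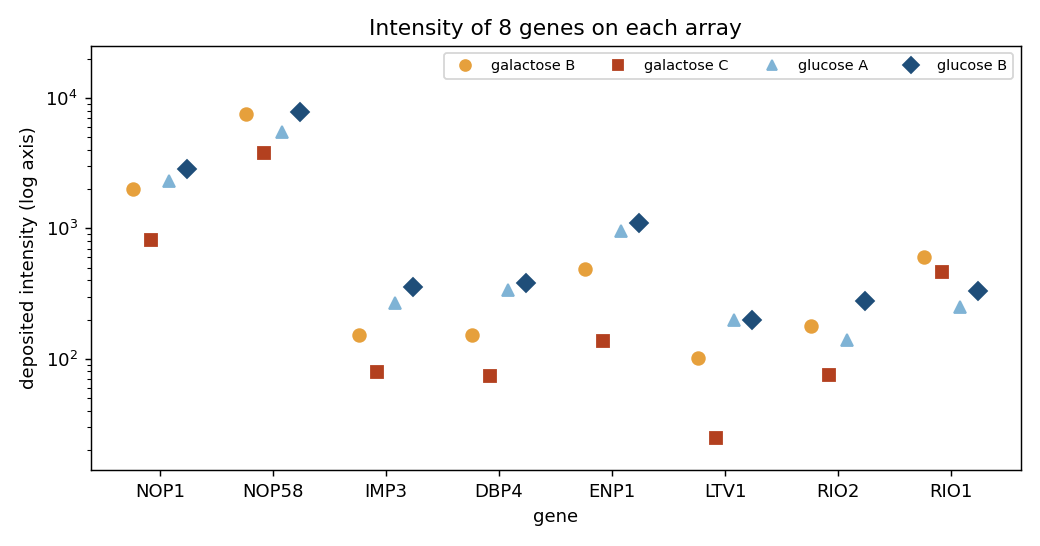
Deposited intensity, on a log axis, of 8 genes on each of the 4 arrays, with 1 point per array. ENP1 and LTV1 are far lower on galactose C than on any other array, NOP58 on galactose B stands close to glucose B, and RIO1 is the gene whose galactose arrays both lie above its glucose arrays.

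The genes lie on 14 of the 16 chromosomes and no 2 of them are neighbours in the RefSeq gene order. Their neighbours had a median difference between galactose C and galactose B of -0.17, against -1.25 in the genes themselves and -0.006 over all genes tested. Of the 98 tested neighbours, 12 were at least 2-fold lower on galactose C, against 6.92% of all genes.

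Other genes of the same pathway, taken from a list of 37, had lower values in galactose as well. Their median difference was -0.92, and 30 of 37 had the media apart downward, against 23.4% of all genes. None passed limma over the whole table, and 12 lay lower at an unadjusted p under 0.05, against 4.33% of probe sets. Galactose C was at least 2-fold lower than galactose B for 16 of 37, against 6.92% of all genes. Without galactose C the median of the 37 was -0.40. The lowest differences were those of FAF1 (-1.56), RRP12, an export factor (-1.55), ESF1 (-1.45) and ESF2 (-1.37). The highest were those of the casein kinase gene HRR25 (0.30) and the helicase cofactor gene SQS1 (0.06), whose media overlapped. The 4 subunit genes of casein kinase 2, part of UTP-C but with many other roles, stood between -0.58 and -0.07.

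Of the neighbouring lists of the growth programme, 60S assembly and RNA polymerase I had galactose medians near those of the 52 genes (-0.36 and -1.71). The 63 assembly factors of the large (60S) subunit had a median of -0.51 for galactose B and -1.85 for galactose C. Their media were apart downward in 56, against 33 of the 52 genes and 23.4% of all genes. From glucose A alone, galactose B had a median of -0.32 in the 60S factors and -0.07 in the 52 genes. For the 8 RNA polymerase I genes the medians were -0.49 and -1.72. Proteins of the small subunit itself were less far from glucose, at -0.06 and -0.61 over 33 genes. Of the 33, 2 were at least 2-fold lower on galactose C than on galactose B, against 6.92% of all genes. Galactose C was still the lowest array for all 33, against 33.7% of all genes. The brightest genes of these lists had differences of -0.76 (TIF6) and -0.95 (NSA2) for the 60S factors, -1.10 (RPA190) and -1.00 (RPA135) for the polymerase, and -0.14 (RPS21A) and -0.11 (RPS12) for the ribosomal proteins. The lists were not tested against one another.

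Regulators of the regulon were examined beside its genes. TOD6, a repressor that binds promoters of ribosome biogenesis genes, stood at 150.4 and 61.8 in galactose and at 196 and 341 in glucose (difference -1.42 ± 0.55, adjusted p = 0.582), in the commonest order of arrays among the 52 genes. Its paralogue DOT6 stood at 385 and 422 in galactose and at 363 and 343 in glucose. The activator gene SFP1 stood at 496 and 528 in galactose and at 514 and 617 in glucose. STB3, HMO1 and the kinase gene SCH9 had differences of 0.30, -0.20 and -0.29, none past the threshold.

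Stress genes showed the opposite order inside each medium. All 12 on a list of heat shock, catalase, trehalose and glycogen genes were higher on galactose C than on galactose B, where 50.4% of all genes were lower. Of the 12, 8 were higher by at least 2-fold, against 7.01% of all genes. From the glucose mean the list's median was 0.04 for galactose B and 1.21 for galactose C. On glucose B 10 of 12 were lower than on glucose A, against 2347 of all 5403 genes tested. The brightest, HSP12, stood at 13828 and 20087 in galactose and at 16597 and 13850 in glucose. TPS1, for trehalose synthesis, stood at 3302 and 6235 in galactose and at 3386 and 3055 in glucose. The part of this shift in the values of the processome genes was not tested.

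**Figure D3:**
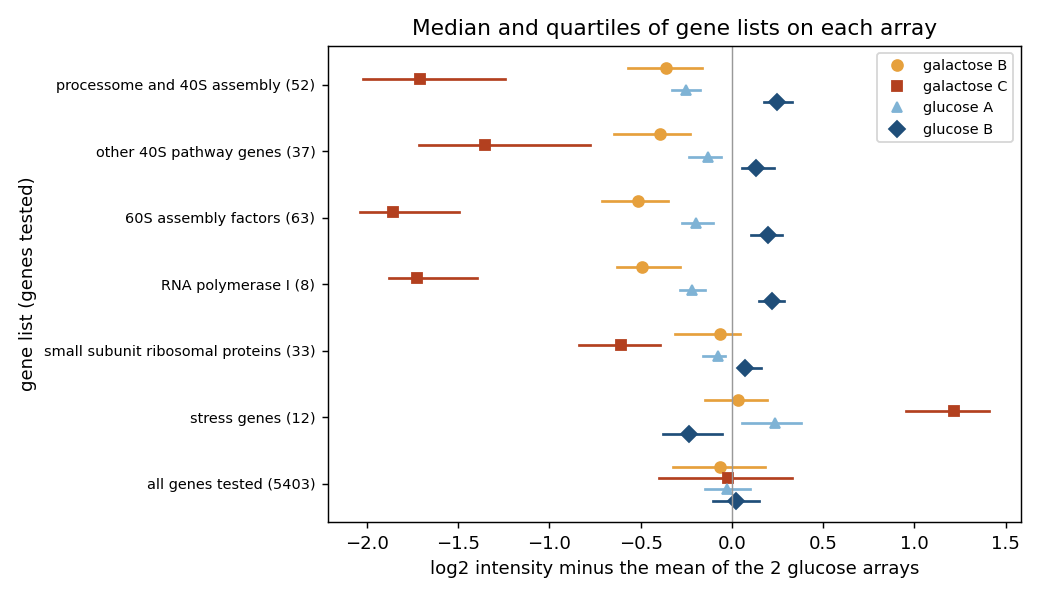
Median (point) and quartiles (bar) over the genes of each list, on each array, of the log2 intensity minus the mean of the 2 glucose arrays. The assembly lists and RNA polymerase I lie between -1.35 and -1.85 on galactose C, the ribosomal proteins at -0.61, the stress genes at 1.21 and all genes near 0.

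Over all 5403 genes, the difference between the galactose arrays (C minus B) and that between the glucose arrays (B minus A), which share no array, had a Pearson correlation of -0.57 and a Spearman correlation of -0.57. Genes lower on galactose C thus tended to be higher on glucose B. Among the 52 genes the correlation was -0.01 (Spearman 0.04). All 52 were lower on galactose C and 51 were higher on glucose B, so this value describes only the order among them. The correlation is across genes, which are not independent replicates, and describes these 4 arrays.

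**Figure D4:**
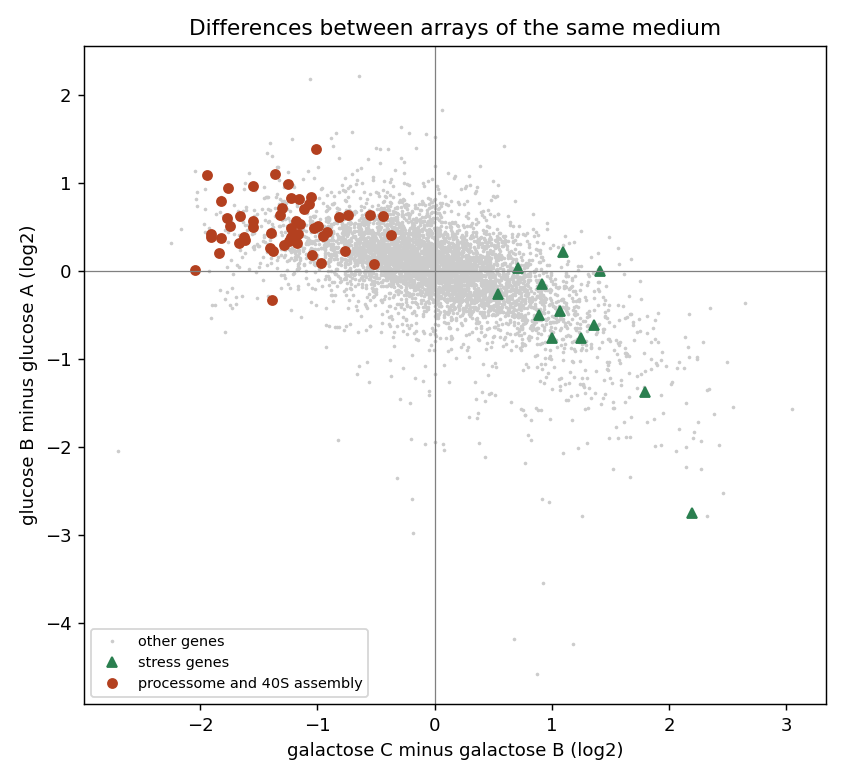
Each point is 1 gene, with the log2 difference of galactose C minus galactose B on the horizontal axis and that of glucose B minus glucose A on the vertical axis. The processome and 40S assembly genes all lie left of 0, and 51 of 52 lie above 0, while the 12 stress genes all lie right of 0.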

How the data were processed

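Each array was deposited as linear intensities, with a single value for every probe set; which software and scaling the authors used is not given in the sources used here. These genes and lists were chosen with earlier results of these data known. After 60 controls were left out, 9275 probe sets remained, and 6504 name 1 gene in the platform annotation. The brightest probe set stood for each gene. The array medians differed by a factor of 1.08, under 1.1, so no scaling was added. Values under the 25th percentile (18.5) were set to it, log2 was taken, and 7302 probe sets above it on some array were tested with limma 3.58.1 in R 4.3.3 (lmFit, eBayes with trend, 2 residual and 4.73 total degrees of freedom), with Benjamini-Hochberg adjustment and a threshold of 0.05. The steps were run on simulated arrays with noise drawn separately for each probe set. Those arrays hold no shift shared by many genes inside a medium. Named genes are, per role, the 2 lowest and 2 highest differences above the floor on all arrays, the dimmest and brightest, and those with the largest gaps inside a medium; other members are named with fewer values. Outside the 52 they are the 4 lowest and 2 highest other 40S genes, the 2 brightest genes of each other list, all listed regulators and the galactose genes. Gene order comes from RefSeq assembly R64; since the build behind the values is unknown, coordinates are left out, and promoter motifs were not analysed here. Tables and figures used Python 3.11.15, pandas 2.3.3 and matplotlib 3.10.9. Alternatives were other scalings, floors, filters, variance models, thresholds, probe set means, and each array left out.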

Additional observations from a re-analysis of the deposited data

How the results depend on the processing

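No paired analysis was possible because the media share only the letter B. The count of called genes was 0 in both directions in the 9 other fits to all 4 arrays and at an adjusted p under 0.10. With other scalings, floors, filters and probe set means, the median difference of the 52 genes lay between -1.04 and -0.95, the count with the media apart between 31 and 37, and the count at least 2-fold lower on galactose C than on galactose B between 34 and 42. With 1 array left out the count apart ran from 33 to 51, and it was 51 without galactose B and without glucose A. Being apart is easier with fewer arrays, and 23.4% of all genes were apart with all arrays. Without galactose C 40.8% of all genes were apart. The share was at least 33.7% without galactose B and at least 31.0% without glucose A, from genes with galactose C lowest or glucose B highest. The median of the 52 genes ran from -1.71 without galactose B to -0.36 without galactose C. Among the 31 genes with full values, 276 of 276 results under other settings kept their sign and side of the threshold. With 1 array left out 117 kept their sign and 7 changed it, in 6 genes. The lowest and highest differences over the 4 such fits, beside the difference with all arrays, were -1.80 and 0.14 for ECM16 (-0.83 with all arrays), -1.24 and 0.12 for NOB1 (-0.56), -0.79 and 0.20 for NOP58 (-0.30), -1.14 and 0.24 for RCL1 (-0.45), -1.19 and 0.14 for UTP21 (-0.52) and -1.06 and 0.12 for UTP22 (-0.47). All 6 turned positive without galactose C, as did UTP20 outside the 31 (0.16, against -0.54), and RCL1 also without glucose B. For NOP58, UTP22 and UTP20 this held for the brightest probe set only. On their other tested probe sets galactose B lay below the glucose mean. Of the 52, 44 were lower in galactose without galactose C, against 51 with all arrays. Over all 5403 genes tested these counts were 3101 and 2875. Those fits leave 1 array in a medium, whose spread is then taken from the other medium. Over all probe sets 58 were called higher and 3 lower, against 5 to 78 and 1 to 4 in the other fits to all 4 arrays and 0 with 1 array left out. UTP6 and FAL1 lay under the floor on galactose C.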
